A study of Homo sapiens with 9 samples.

Results

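A549 cells that received a negative control siRNA are the control state of this series, and their transcriptome is described here from 3 arrays of 9 in all. The members were the 3 arrays titled as the negative control, and no contrast entered the choice. A549 is a widely used human cell line that was grown from an adenocarcinoma of the lung. The other groups were A549 cells given siRNA against FAM210B and A549 cells given siRNA against UQCRC2, with 3 arrays each. All 3 groups grew in DMEM and were taken 72 h after transfection of siRNA, so the control cells had also been transfected and no array shows untransfected A549 cells. The titles call the arrays biological replicates without saying whether they came from separate cultures. The SD over 3 arrays may therefore be partly technical, and A549 is 1 line, so nothing here covers the spread between cell lines.

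Each array gave 67528 rows of log2 signal, of which 23781 carried exactly 1 gene symbol and covered 22411 genes. A gene with several rows is represented by its row of highest mean signal, and ranks run from 1 at the highest of the 23781 row means. A percentile gives the share of rows with a lower mean. Probes differ in how well they bind, so a rank orders array signals, not amounts of RNA. Of 1174 genes in 48 functional lists, 1034 had such a row. The others, among them FTH1 and HNF4A, had no row with a single symbol and were not analysed here.

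A549 cells are often used as a model of the alveolar type II cell, which makes surfactant. The line is known to carry an inactive KEAP1, the protein that marks the transcription factor NRF2 for degradation, and NRF2 drives genes for quinone, aldehyde and peroxide detoxification and for NADPH supply. It is also known to lack the CDKN2A locus and to carry changes in STK11 and SMARCA4.

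The 3 arrays agreed closely but not evenly. The median absolute difference over 23781 rows was 0.0601 between replicates 1 and 2, 0.128 between 1 and 3 and 0.111 between 2 and 3. Pearson's r across rows, a description over genes that share the arrays, was 0.998, 0.996 and 0.996 in the same order. Replicate 3 was the array farthest from the others in 13508 rows (56.8%), replicate 1 in 5874 and replicate 2 in 4399. The median SD over the arrays was 0.123 in si-FAM210B cells, 0.0424 in si-UQCRC2 cells and 0.0846 in control cells, and these were not tested against each other. The labels name no batch, so whether replicate 3 differs by culture, labelling or hybridisation was not tested.

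All 5 genes given as markers of the line had signals in the top 5% of rows, and 4 of them in the top 1%. AKR1B10, an aldo-keto reductase that reduces aldehydes and retinal, read 12.31, 12.26 and 12.22 on the 3 arrays and ranked 15 of 23781. ALDH1A1, which oxidises retinal to retinoic acid, read 12.13, 11.98 and 12.05 and ranked 20. The paired simple-epithelium keratins KRT18 and KRT8 averaged 11.49 ± 0.06 and 11.33 ± 0.03 (SD, n = 3) at ranks 39 and 57. AKR1C1, a hydroxysteroid dehydrogenase, was the lowest of the 5 at 8.89, 8.74 and 8.76, or rank 1038. The gap of AKR1C1 to the other markers exceeded 2 log2 units on every array, while no marker varied by more than an SD of 0.08. KRT8 had a second row at 9.71, so its level depends on the row taken.

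**Figure D1:**
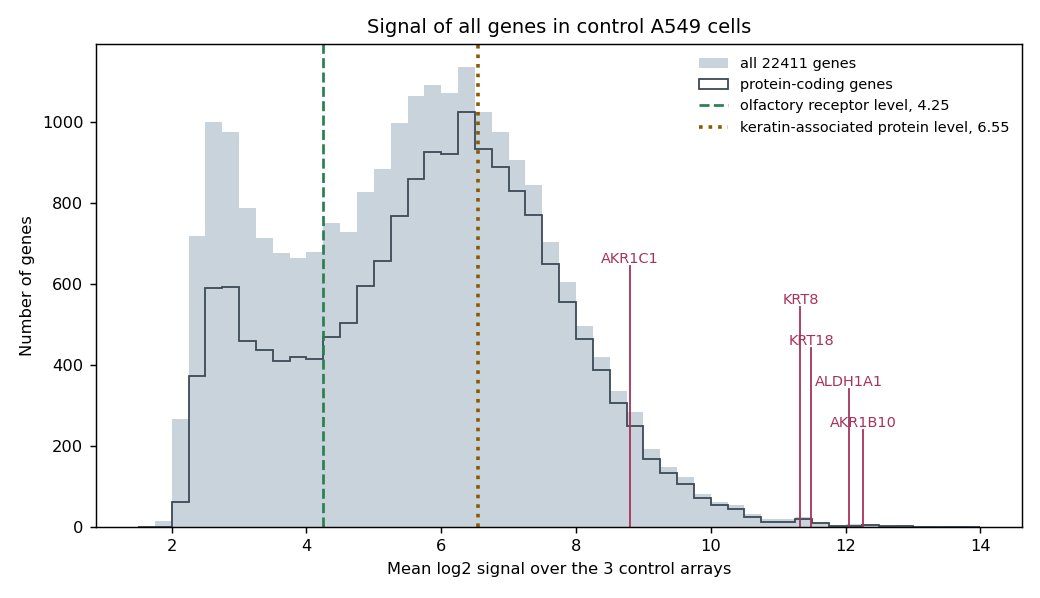
Histogram of the mean log2 signal over the 3 control arrays (x axis) against the number of genes (y axis) for 22411 genes, with protein-coding genes outlined. The vertical lines mark the 5 marker genes, of which AKR1C1 at 8.80 lies lowest, and the broken lines mark the levels taken from olfactory receptor rows (4.25) and keratin-associated protein rows (6.55).

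Families that a lung line is not known to use gave a measure of signal without expression. The 434 rows of olfactory receptors, the odour sensors of the nose, had a median of 2.70 and a 95th percentile of 4.25. The 90 rows of keratin-associated proteins, structural proteins of hair, had a median of 3.77 and a 95th percentile of 6.55. Above the olfactory receptor level lay 15898 of 22411 genes (70.9%), and above the keratin-associated level 7124 (31.8%). Of 17154 protein-coding genes 78.1% and 37.6% passed these levels, the shares to set beside the list counts below. The lower level was also passed by markers of tissues foreign to a lung line, such as the astrocyte filament GFAP at 5.47 ± 0.08 and the muscle filament DES at 5.08 ± 0.19 (SD, n = 3). A signal between both levels is therefore reported as a value and not as expression. The higher level was chosen after these values were seen.

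The 25 protein-coding genes of highest signal served varied functions. ACTG1, the gamma actin of non-muscle cells, averaged 12.86 ± 0.04, FTL, the light chain of the iron store ferritin, 12.73 ± 0.07 and TUBA1B, an alpha tubulin, 12.60 ± 0.05 (SD, n = 3 each). The ribosomal protein genes RPS16, RPS15, RPL19 and RPS28 reached 12.37, 12.11, 11.66 and 11.42, and EEF1A1, the elongation factor that delivers aminoacyl-tRNA, 11.94. GAPDH of glycolysis stood at 12.31, ANXA2, a membrane-binding annexin, at 12.28 and ACTN4, an actin crosslinker, at 12.01. Nuclear proteins followed, with the histone genes H1-4, H2BC12 and H2AC20 at 11.72, 11.70 and 11.70 and the nuclear import adaptor KPNA2 at 11.70. TUBB, a beta tubulin, read 11.70, TMSB10, an actin-binding thymosin, 11.58, SLC7A5, a carrier of large neutral amino acids, 11.58, and ECH1, an enzyme of fatty acid oxidation, 11.54. PRDX1, a peroxiredoxin, and HSP90AB1, a cytosolic chaperone, completed the 25 highest at 11.46 and 11.40. Actins, tubulins, histones and ribosomal protein genes have near-identical copies, and their rows may collect signal from more than 1 of them. The dimmest of 48 cytosolic ribosomal protein genes were RPL37A at 6.02 and RPL31 at 5.48.

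The highest protein-coding value of all was that of SLC44A4, a choline transporter-like protein, at 12.95, 12.83 and 12.99. SLC44A4 had 8 rows, and the other 7 averaged between 4.85 and 4.88. Its place therefore rests on 1 row. In all, 528 genes had more than 1 row, and for 204 of them the highest and lowest row means differed by more than 1. Among the listed genes, 25 had several rows and 14 of those differed by more than 1. ITGB1 with 10.82, 5.93 and 4.72, ENO1 with 10.99 and 6.24 and CD44 with 8.30 and 3.97 were examples.

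The 4 highest rows of all were not protein coding. RN7SL1, the RNA of the signal recognition particle, read 13.58, 13.45 and 13.56 and ranked 1. SNORD13, a small nucleolar RNA, averaged 13.04 ± 0.12 and RN7SK, the RNA that holds the elongation factor P-TEFb inactive, 12.98 ± 0.07 (SD, n = 3). The ferritin pseudogene FTLP3 averaged 12.95, above its parent FTL, and ANXA2P2 averaged 12.41, above its parent ANXA2, and such copies cannot be told apart by a signal alone. RNA5SP149 and RNA5SP243, pseudogenes of 5S ribosomal RNA, reached 12.37 and 12.08, the small cytoplasmic RNA BCYRN1 12.20 and the 7SK pseudogene RN7SKP9 12.06. MIR4466, a microRNA gene, read 12.29, 12.26 and 12.56. Of the 238 rows in the top 1%, 177 were protein coding, 21 pseudogenes, 3 transcribed pseudogenes, 13 small nucleolar RNAs and 11 microRNA genes.

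NRF2 target genes were the brightest of the functional lists. All 32 members with a row lay above the olfactory receptor level and 31 above the keratin-associated level, against 31.8% of all genes and 37.6% of protein-coding genes. Their median percentile was 98.0, and 23 of the 32 were in the top 5% of rows. NQO1, which reduces quinones by 2 electrons, read 11.41, 11.38 and 11.38, an SD of 0.01. PGD, which makes NADPH in the pentose phosphate pathway, read 11.39, 11.37 and 11.34. TXN, the small redox protein thioredoxin, averaged 11.18 ± 0.06, and GSR, which regenerates reduced glutathione, 10.58 ± 0.05 (SD, n = 3).

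Transport and conjugation genes of the same list followed. UGDH, which makes UDP-glucuronic acid, averaged 10.46 ± 0.09 and ABCC2, an export pump for conjugates, 10.38 ± 0.11 (SD, n = 3). The related pumps ABCC1 and ABCC3 averaged 9.65 and 9.01. SLC7A11, the cystine importer, read 9.89 and 9.94 on replicates 1 and 2 and 9.62 on replicate 3. GCLM, the modifier subunit of the first enzyme of glutathione synthesis, read 8.96 and 8.93 on those replicates and 8.60 on replicate 3. Its catalytic partner GCLC averaged 8.02 ± 0.12. HMOX1, the inducible heme oxygenase, had a lower signal than 27 of the list members at 7.76, 7.83 and 7.84. The lowest members were PIR at 7.37, CBR1 between 6.92 and 7.08 and CBR3, the only one under the keratin-associated level, at 5.68.

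Of the regulators, NFE2L2, the gene of NRF2 itself, read 8.49, 8.44 and 8.36. KEAP1 read 7.81 and 7.79 on replicates 1 and 3 and 8.12 on replicate 2, so the odd array for KEAP1 was replicate 2. CUL3, the ligase scaffold that works with KEAP1, averaged 8.20 ± 0.12 and SQSTM1, a receptor of selective autophagy that also binds KEAP1, 8.68 ± 0.01 (SD, n = 3). The small MAF partners MAFG and MAFF averaged 6.42 ± 0.19 and 5.84 ± 0.15, both below the keratin-associated level. NFE2L1, the NRF2 relative that controls proteasome genes, averaged 8.34.

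NRF2 binds antioxidant response elements, and their core, TGACNNNGC, was searched on both strands of RefSeq promoter windows (GRCh38.p14) that run from 250 bases before to 50 after a start. It occurs in 13.3% of all 35116 windows, and in at least 1 window of 16.1% of 27305 genes. Of the 37 listed NRF2 targets, 25 had a window and 11 of these (44.0%) held the core. The integrated stress response list had it in 9 of 26 genes and the cytosolic ribosomal proteins in 8 of 62. NQO1 had no match in its window. Neither had FTL, TXN, AKR1C2, UGDH, ABCC2, TKT or TALDO1, all with means of 10.03 or more, while PGD at 11.36 held the core. The following stretches belong to 6 of the targets with the core, and whether the core goes with signal was not tested. Each is written 5′ to 3′ on the strand of its gene with the core in capitals, and where the core lies on the other strand it reads as its reverse complement.
PGD: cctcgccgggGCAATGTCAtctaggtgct
TXNRD1: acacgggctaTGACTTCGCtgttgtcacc
ME1: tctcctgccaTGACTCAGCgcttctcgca
EPHX1: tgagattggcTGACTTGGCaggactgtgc
GCLM: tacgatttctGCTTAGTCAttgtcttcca
GPX2: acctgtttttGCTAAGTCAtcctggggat
The stretches lie at chr1:10398853-10398881 (plus strand) for PGD, chr12:104215670-104215698 (plus) for TXNRD1, chr6:83431170-83431198 (minus) for ME1, chr1:225825266-225825294 (plus) for EPHX1, chr1:93909446-93909474 (minus) for GCLM and chr14:64942849-64942877 (minus) for GPX2. The core begins 201, 99, 137, 78, 34 and 122 bases before the annotated start in that order. The core in ME1 also holds TGACTCA, the site of AP-1, and a match is a run of letters and no shown site. Signals of these genes were 9.52, 9.46 and 9.46 for the thioredoxin reductase TXNRD1, and 9.63, 9.48 and 9.31 for the malic enzyme ME1. The epoxide hydrolase EPHX1 read 9.27, 9.21 and 9.29, and the glutathione peroxidase GPX2 8.39, 8.37 and 8.37.

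**Figure D2:**
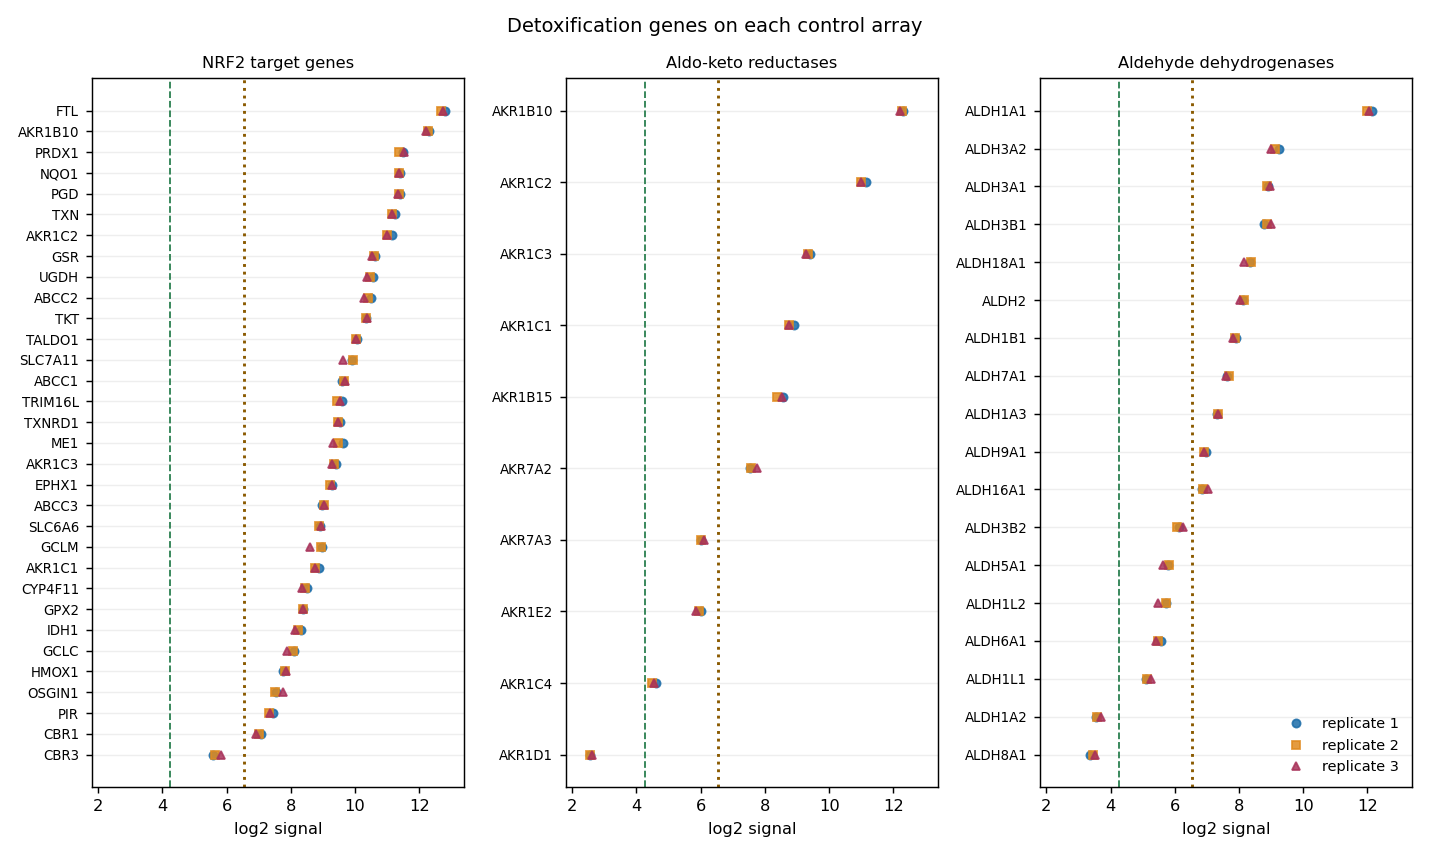
Log2 signal (x axis) of each NRF2 target, aldo-keto reductase and aldehyde dehydrogenase with a row (y axis), 1 symbol per control array, with the olfactory receptor level (dashed, 4.25) and the keratin-associated level (dotted, 6.55). AKR1B10 and ALDH1A1 stand at the top of their families at 12.26 and 12.05, no NRF2 target lies under the dashed line, and 1 aldo-keto reductase and 2 aldehyde dehydrogenases do.

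The aldo-keto reductases spanned nearly the whole scale of the array. After AKR1B10, AKR1C2 read 11.16, 10.98 and 10.98, AKR1C3 averaged 9.35 ± 0.05 and AKR1B15 8.50 ± 0.09 (SD, n = 3). At the other end, AKR1C4, the liver member of the AKR1C group, averaged 4.55 ± 0.07, and AKR1D1, the bile acid 5-beta-reductase, 2.56 ± 0.03. The AKR1C genes are near-identical in sequence, as are AKR1B10 and AKR1B15, so signal may be shared between their rows. Of 10 members, 6 lay above the keratin-associated level and 4 in the top 5%, against 37.6% and 5.78% of protein-coding genes.

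Aldehyde dehydrogenases showed a similar range behind ALDH1A1. ALDH3A2, which oxidises fatty aldehydes, averaged 9.12 ± 0.12, ALDH3A1 8.92 ± 0.06 and ALDH3B1 8.89 ± 0.12 (SD, n = 3). The mitochondrial ALDH2, known for acetaldehyde, averaged 8.11 ± 0.06. Of the other retinal dehydrogenases, ALDH1A3 averaged 7.34 and ALDH1A2 3.61, under the olfactory receptor level with ALDH8A1 at 3.44. In this family 11 of 18 lay above the keratin-associated level, against 37.6% of protein-coding genes.

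Phase I and conjugation enzymes were split. CYP24A1, which inactivates vitamin D, read 11.10, 11.09 and 11.07 and ranked 73. CYP2S1 and CYP4F11 averaged 8.57 and 8.42, and the dioxin receptor AHR 8.10. The main drug-metabolising enzyme of liver, CYP3A4, averaged 2.82 ± 0.02, the glucuronosyltransferase UGT2B7 2.85 ± 0.07 and the estrogen sulfotransferase SULT1E1 2.30 ± 0.03 (SD, n = 3). CYP1A1, a target of AHR, stood at 4.31 ± 0.03, while CYP1B1, another, averaged 7.84 ± 0.01. Of 19 members 10 exceeded the keratin-associated level, against 37.6% of protein-coding genes. The olfactory receptor level was not reached by 5 members, while 78.1% of protein-coding genes passed it.

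Antioxidant genes outside the NRF2 list included GSTP1, a glutathione transferase, at 10.46 ± 0.02, the mitochondrial peroxiredoxin PRDX3 at 10.03 ± 0.11 and GPX4, which reduces lipid peroxides, at 9.70 ± 0.09 (SD, n = 3). The cytosolic superoxide dismutase SOD1 averaged 9.51, and catalase (CAT) 7.91. GSTM1 averaged 5.29, GPX7 4.15 and GSTA1, a liver form, 2.66. Of 32 members 20 lay above the keratin-associated level, against 37.6% of protein-coding genes.

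Epithelial genes ranged from the top of the scale to the floor. KRT7, another simple-epithelium keratin, averaged 10.94 ± 0.03 (SD, n = 3). TJP1 and CLDN1 of tight junctions averaged 9.84 and 9.45, and JUP, DSG2 and DSP of desmosomes 8.57, 8.54 and 8.20. CDH1, the epithelial cadherin, read 7.67, 7.72 and 7.62, whereas EPCAM, an epithelial adhesion molecule, read 5.53, 5.48 and 5.50. The splicing factor ESRP1 and the transcription factor GRHL2, both typical of epithelia, averaged 2.86 ± 0.11 and 3.53 ± 0.02. KRT20 of gut and bladder averaged 2.89, and the stratified-epithelium keratins KRT5 and KRT14 averaged 5.08 and 4.52. In this list 16 of 33 genes exceeded the keratin-associated level, against 37.6% of protein-coding genes, and 5 did not reach the olfactory receptor level. That lower level was passed by 78.1% of protein-coding genes.

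Of 24 mesenchymal genes 9 exceeded the keratin-associated level, close to the 37.6% of protein-coding genes, and their median percentile of 62.1 was near the protein-coding median of 58.3. AXL, a receptor kinase, read 10.34, 10.36 and 10.39 and VIM, the filament vimentin, 10.24, 10.20 and 10.20. FN1, the matrix protein fibronectin, averaged 8.65 ± 0.05 and CDH2, the neural cadherin, 8.29 ± 0.09 (SD, n = 3). CDH2 lay above CDH1 on every array, though these are signals of different probes. Of the transcription factors of epithelial-mesenchymal transition, SNAI1 averaged 7.09 and ZEB1 6.97, SNAI2 5.98 and TWIST1 4.98. Fibroblast markers were split. DCN at 2.61 ± 0.13, LUM at 2.48 ± 0.04, POSTN at 2.43 ± 0.02 and FAP at 2.43 ± 0.03 stood at the floor. PDGFRA at 3.59 also lay under the olfactory receptor level. COL1A1 at 6.44 ± 0.15, THY1 at 6.12, PDGFRB at 4.88 and COL1A2 at 4.84 lay between both levels.

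Alveolar and lung lineage genes lay low among protein-coding genes. SFTPC, the surfactant protein restricted to alveolar type II cells, read 5.09, 5.08 and 5.34, SFTPB 5.31, 5.30 and 5.49, and SFTPA1 5.27, 5.20 and 5.29. NKX2-1, the lineage transcription factor of lung, read 5.49, 5.49 and 5.61, and the aspartic protease NAPSA 4.97, 5.14 and 5.06. None of these 5 reached the keratin-associated level. The list of 27 genes had a median percentile of 43.0, against 50.8 for all genes and 58.3 for protein-coding genes, and 34.9 when ranked among protein-coding rows only. Of the 27, the 4 genes CAV1, LPCAT1, MUC5AC and ABCA3 exceeded 6.55, against 37.6% of protein-coding genes. CAV1, the caveolar protein also found in type I cells and fibroblasts, averaged 9.50 ± 0.08, and LPCAT1, an enzyme of surfactant lipid synthesis, 7.55 ± 0.08. MUC5AC, a secreted airway mucin, averaged 7.03 ± 0.14 and ABCA3, the lipid pump of lamellar bodies, 6.80 ± 0.09 (SD, n = 3). The lowest were HOPX at 3.60 and CLIC5 at 3.29, both known from type I cells. All 27 were higher on replicate 3 than the mean of the other arrays, against 13998 of 22411 genes. Most of the 27 lay between 3 and 6, where rows of any kind tended to be higher on replicate 3. Its median deviation there was 0.08 between 3 and 4, 0.09 between 4 and 5 and 0.09 between 5 and 6. The count is therefore not given as a trait of these genes.

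Markers of other cell types gave no bright row but CD68. This lysosomal glycoprotein, used for macrophages but also present elsewhere, averaged 7.89 ± 0.08 (SD, n = 3), and the other 16 of 17 markers lay under the keratin-associated level. The leukocyte antigen PTPRC averaged 2.49 ± 0.03, the B cell antigen MS4A1 2.73, lysozyme (LYZ) 2.48 and the endothelial PECAM1 2.94. Other leukocyte and endothelial markers lay between both levels, with CD14 at 5.02, CD3E at 4.44, CDH5 at 4.84 and VWF at 4.75. Of the 17 markers 12 passed the olfactory receptor level, against 78.1% of protein-coding genes. Neuroendocrine genes CHGA, SYP and INSM1 averaged 6.27, 5.68 and 5.53. ENO2, an enolase used as a neuroendocrine marker that tumour lines also express, was the only member of its 10-gene list above 6.55, at 7.33 ± 0.11. POU2F3, the tuft cell factor, and CALCA were lowest at 4.76 and 4.61.

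**Figure D3:**
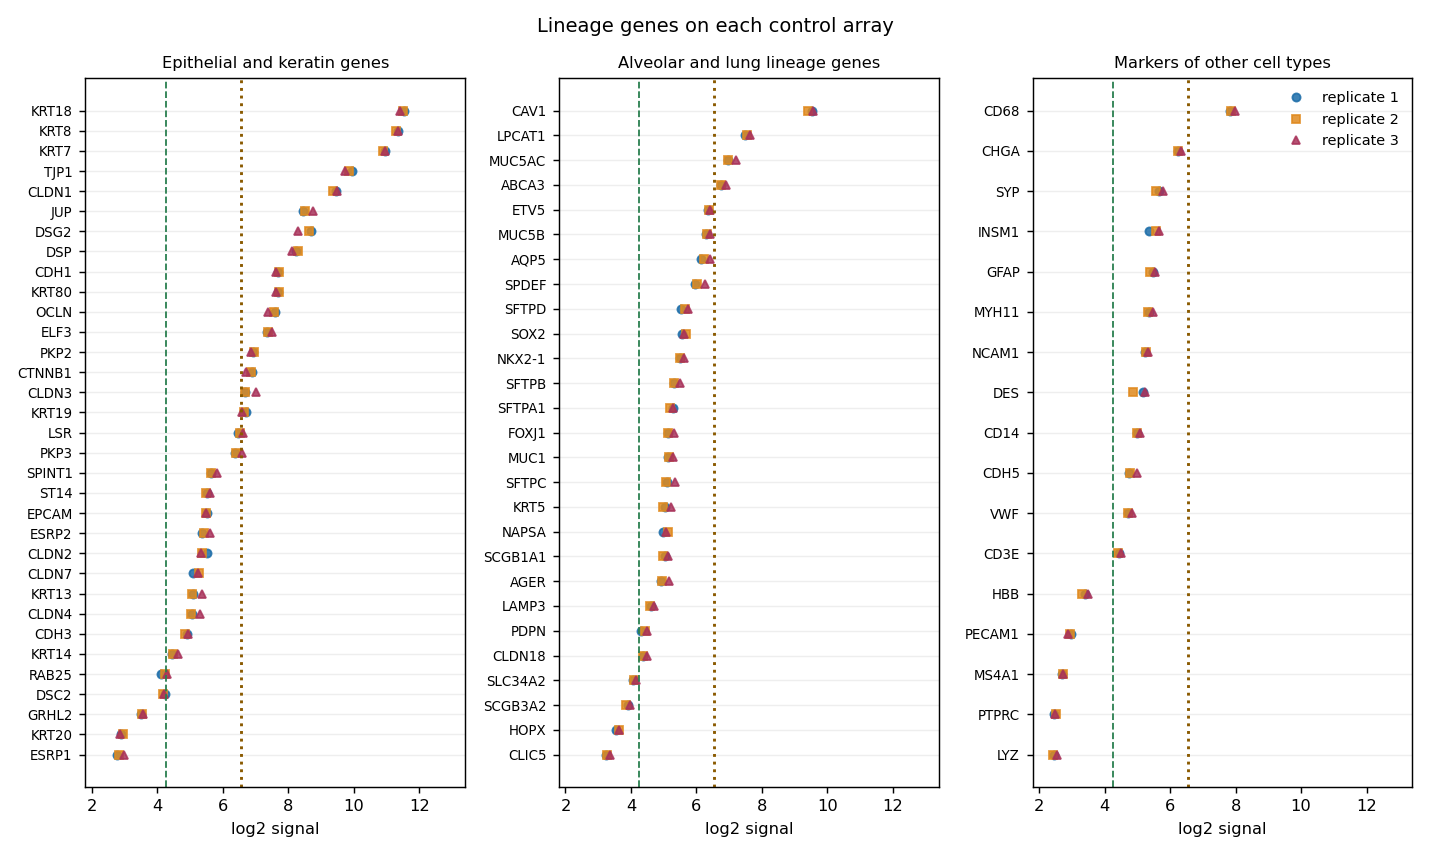
Log2 signal (x axis) of epithelial, alveolar and other cell type genes (y axis), 1 symbol per control array, with the olfactory receptor level (dashed, 4.25) and the keratin-associated level (dotted, 6.55). KRT18, KRT8 and KRT7 lie above 10.9 on average, the surfactant genes lie between both lines, and CD68 is the 1 marker of other cells to the right of the dotted line.

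Liver and gut type genes were mostly dim. FOXA2, a transcription factor of endoderm, read 7.81, 7.78 and 7.83 and CPS1, the first enzyme of the urea cycle, 7.39, 7.33 and 7.09. These were the only 2 of 23 above the keratin-associated level, against 37.6% of protein-coding genes. GATA6, another endoderm factor, averaged 6.41. Among fibrinogen chains FGA averaged 6.09 ± 0.16, FGB 4.44 ± 0.10 and FGG 3.22 ± 0.11, with albumin (ALB) at 2.53 ± 0.07 and AFP at 2.38 ± 0.05 (SD, n = 3). TM4SF20 and APOH varied more than most, at 6.56, 6.28 and 6.03 and at 6.14, 5.93 and 5.58.

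Of the genes known to be altered in A549 DNA, CDKN2A, the cell cycle inhibitor p16, read 4.38, 4.49 and 4.54, and its neighbour CDKN2B 4.22 on all 3 arrays. CDKN2B lay under the olfactory receptor level of 4.25. CDKN2A, with a mean of 4.47, lay above it at the 32.4th percentile and under the keratin-associated level. A gene of a locus that the line is known to lack thus passed the lower level. MTAP, which lies beside them, had rows at 5.52 ± 0.20 and 3.16 ± 0.05 (SD, n = 3). STK11, a kinase upstream of AMPK, lay between 6.92 and 7.07, and SMARCA4, a chromatin remodelling ATPase, averaged 6.67 ± 0.09. An array signal does not show whether a transcript is intact.

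Glycolysis genes were bright, with a median percentile of 96.0 over 21 members, 18 of them above the keratin-associated level, against 37.6% of protein-coding genes. PKM, pyruvate kinase, averaged 11.29 ± 0.05, GPI, glucose phosphate isomerase, 11.13 ± 0.05 and ENO1, an enolase, 10.99 ± 0.01 (SD, n = 3). Both lactate dehydrogenase genes were bright, LDHB at 10.30 and LDHA at 9.44. The phosphofructokinase forms PFKP, PFKL and PFKM averaged 9.82, 7.37 and 6.99. HK1 averaged 7.05 ± 0.04 and HK2 4.85 ± 0.06, the lowest of the list. Of the glucose carriers, SLC2A1 averaged 8.81 and SLC2A3 7.41. ALDOC, a fructose bisphosphate aldolase, read 5.47 on replicates 1 and 2 and 5.91 on replicate 3.

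NADPH and one-carbon enzymes all exceeded the keratin-associated level, 16 of 16, with 12 in the top 10% of rows. Of protein-coding genes, 37.6% exceeded that level and 12.02% were in the top 10%. After PGD came the transketolase TKT at 10.35 ± 0.02, PSAT1 of serine synthesis at 10.24 ± 0.09 and the transaldolase TALDO1 at 10.03 ± 0.02 (SD, n = 3). The folate enzymes MTHFD1 and MTHFD2 averaged 9.68 and 8.60. PHGDH, which opens serine synthesis, was lowest at 6.61 ± 0.02. RPIA, an isomerase of the pentose phosphate pathway, read 7.03, 7.19 and 6.79.

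In the citric acid cycle all 30 members passed the olfactory receptor level and 25 the keratin-associated level, against 78.1% and 37.6% of protein-coding genes. Citrate synthase (CS) averaged 9.90 ± 0.04, the aspartate aminotransferase GOT2 9.63 ± 0.06 and IDH3A 9.35 ± 0.12 (SD, n = 3). PDHA1 of pyruvate dehydrogenase averaged 8.20, and its inhibitory kinases PDK3, PDK2, PDK1 and PDK4 7.17, 6.84, 6.44 and 6.10. MPC1 and MPC2, the pair that forms the pyruvate carrier, differed, at 5.05 ± 0.13 and 6.78 ± 0.06. PDP1, a phosphatase that activates pyruvate dehydrogenase, averaged 5.78.

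Lipid synthesis genes stood above lipid oxidation genes in median, at 7.46 for fatty acid synthesis, 7.12 for cholesterol synthesis and 6.29 for fatty acid oxidation. ACLY, which makes cytosolic acetyl-CoA, read 10.70, 10.72 and 10.67 and the desaturase SCD 10.38, 10.43 and 10.26. FASN, fatty acid synthase, averaged 8.69 ± 0.12 (SD, n = 3). DHCR7, the last step to cholesterol, averaged 8.62 ± 0.01 and SQLE, squalene epoxidase, 8.23 ± 0.14. CYP51A1, a demethylase of the same pathway, averaged 8.32, and HSD17B7 and the sterol carrier STARD4 were lowest at 4.98 and 5.25. Of the synthesis genes of fatty acids, ACSS2, which activates acetate, averaged 5.67 and THRSP 4.69. HADHA, a subunit of the mitochondrial trifunctional protein, was the highest member of the oxidation list at 9.89 ± 0.07. ECH1, given above at 11.54, is not in that list. CPT1A, which admits fatty acids to mitochondria, averaged 8.27 ± 0.03. ETFA, an electron carrier, and the hydratase ECHS1 averaged 9.32 and 8.64. ACADL and the coactivator PPARGC1A lay at the floor with 2.68 and 2.86.

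Respiratory chain genes had medians between 7.06 and 7.51, a narrow band, while single subunits ranged from 3.94 to 11.37. ATP5F1B, the catalytic beta subunit of ATP synthase, averaged 11.37 ± 0.05, and the cytochrome oxidase subunits COX8A and COX6A1 11.26 ± 0.12 and 10.96 ± 0.01 (SD, n = 3). UQCRC2, the complex III core subunit that the series silences, read 9.96, 9.84 and 9.70, and CYC1, cytochrome c1, averaged 9.35. In complex I, NDUFS5 read 9.40, 9.61 and 9.90 and NDUFA12 averaged 9.10. The lowest members of their lists were NDUFB4 at 3.94 ± 0.14, UQCRB at 4.39 ± 0.09, COX6C at 4.43 ± 0.05 and ATP5MG at 5.01 ± 0.12. Between these, ATP5F1C, ATP5PD and COX4I1 averaged 10.56, 10.08 and 9.62, NDUFB11 and UQCRC1 8.77 and 8.48, and UQCC3, COX7A1, ATP5MC3 and NDUFB2 5.70, 5.53, 5.17 and 4.86. Above the keratin-associated level lay 24 of 32 genes of complex I and 11 of 16 of complexes II and III. In complex IV 15 of 21 and in complex V 13 of 17 did so, against 37.6% of protein-coding genes.

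FAM210B, the mitochondrial membrane protein that the series silences, read 6.39, 6.46 and 6.48 and its paralog FAM210A 6.68, 6.77 and 6.72. FAM210B thus lay just under the keratin-associated level at rank 7863. Its range over the control arrays was 0.09.

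Other mitochondrial groups were brighter in the import machinery than in genome upkeep. PHB2, a prohibitin of the inner membrane, averaged 9.86 ± 0.09, the import pore TOMM40 9.83 ± 0.09 and TIMM50 9.70 ± 0.02 (SD, n = 3). Of 29 import and dynamics genes 28 exceeded the keratin-associated level, and of 15 genome maintenance genes 9, against 37.6% of protein-coding genes. HSPA9, the mitochondrial HSP70, averaged 10.60 ± 0.08. The chaperone TRAP1 and the protease YME1L1 averaged 9.64 and 9.55, and HTRA2, another protease, 6.26. TFAM, which packages mitochondrial DNA, averaged 7.70 ± 0.12 and the DNA polymerase POLG 6.96 ± 0.05. TFB2M, a transcription factor of mitochondria, read 8.22, 8.09 and 7.72. DGUOK, a nucleoside kinase, averaged 7.74, and TFB1M and MTERF1 were lowest at 4.97 and 4.85. In the import list TOMM7 and TIMM9 were lowest at 6.57 and 6.44. Mitochondrial ribosomal proteins ranged from MRPS34 at 9.78 ± 0.13 to MRPS22 at 5.33 ± 0.04, and 51 of 71 exceeded 6.55. MRPS35, MRPL58 and MRPL52 averaged 9.52, 9.50 and 5.35. Among carriers, SLC25A39, SLC25A3, the phosphate carrier, and SLC25A5, an ADP/ATP carrier, averaged 9.50, 9.48 and 9.45, and UCP1, the uncoupler of brown fat, 3.51. Its relative UCP3 averaged 5.44.

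Chaperones formed the second brightest functional list, with a median percentile of 97.5. All 19 cytosolic members exceeded the keratin-associated level, against 37.6% of protein-coding genes. HSP90AA1 averaged 10.90 ± 0.05, CCT4, a subunit of the TRiC folding chamber, 10.58 ± 0.14 and STIP1, which links HSP70 to HSP90, 10.43 ± 0.06 (SD, n = 3). HSPA1A, an inducible HSP70 with a near-identical copy, averaged 9.03 ± 0.11 in the highest of its 4 rows. BAG3 and HSF1, the master factor of the heat shock response, were lowest at 7.87 and 7.50. In the endoplasmic reticulum CALR, HSPA5 and CANX averaged 11.23, 10.67 and 10.42. DNAJB9, a target of the unfolded protein response, averaged 5.30 ± 0.02 and DNAJC3 read 7.19, 7.14 and 6.70. ERN1, a sensor of that response, averaged 5.79.

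Genes of the integrated stress response, in which ATF4 raises amino acid supply when translation is restrained, were mixed. ATF4 itself averaged 9.14 ± 0.04, SLC3A2, partner of SLC7A5, 9.83 ± 0.02 and the tRNA synthetases GARS1 and AARS1 9.90 and 9.86 (SD, n = 3). SLC7A5 at 11.58 and PSAT1 at 10.24 were the highest members of the list. ASNS at 7.64, TRIB3 at 7.46, CHAC1 at 6.62 and ATF3 at 6.04 were dimmer than all of these. DDIT3 averaged 4.90 ± 0.18 and FGF21 3.61 ± 0.15. GDF15, a secreted stress cytokine, read 7.71, 7.97 and 8.21, the widest range of the list, with replicate 3 highest. DELE1 and OMA1, which relay mitochondrial stress to this response, averaged 6.74 and 5.03.

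Hypoxia genes lay in the upper part of the scale. HIF1A averaged 10.13 ± 0.15 and the carbonic anhydrase CA12 10.51 ± 0.04 (SD, n = 3). VEGFA, an angiogenic factor, averaged 6.90 and LOX, a collagen crosslinker, 3.48. BNIP3L, a receptor of mitophagy, averaged 9.07 and ANKRD37 5.63. MT2A was the brightest metallothionein at 9.59 ± 0.05, followed by MT1X at 7.98 ± 0.10. MT1G averaged 4.78, and MT1 genes are near-identical, so their rows may share signal. MT1B averaged 4.97 ± 0.27, and the zinc carrier SLC39A14 8.40. SLC39A10, another, lay between 7.76 and 8.15.

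Of 23 interferon-stimulated genes 5 exceeded the keratin-associated level, against 31.8% of all genes and 37.6% of protein-coding genes, and their median percentile was 41.0. IFI44L, IFI44, IFIT1 and RSAD2 averaged 2.35, 2.41, 2.83 and 2.98, each with an SD of at most 0.04. The brightest were IFITM2, a membrane restriction factor, at 8.97 ± 0.05 and IFI6 at 7.59 ± 0.18 (SD, n = 3). OAS3, a sensor of double-stranded RNA, averaged 7.06. These values come from cells that had been given siRNA.

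Of 31 focal adhesion and actin genes 30 exceeded the keratin-associated level, with a median percentile of 96.8. VCL, MYH9 and TLN1, which link integrins to actin or pull on it, averaged 9.86, 9.75 and 8.58, and the kinase PTK2 7.36. CAV2 alone was lower, at 5.21 ± 0.06. The next lowest was MYL9, a myosin light chain, at 6.99. Of 25 integrin genes 8 exceeded that level, a share near the 31.8% of all genes and the 37.6% of protein-coding genes. These were ITGB1 at 10.90, 10.82 and 10.75, then ITGA3 at 9.22 ± 0.07, ITGAV at 9.13 ± 0.12, ITGB5 at 8.61 ± 0.07, ITGA6 at 7.74 ± 0.09, ITGA5 at 7.33 ± 0.04, ITGB4 at 7.14 ± 0.08 and ITGA2 at 6.98 ± 0.15 (SD, n = 3). Of the leukocyte integrin subunits, ITGB2, ITGAX, ITGAM and ITGB7 averaged 5.76, 5.28, 5.09 and 4.87, and ITGAL and ITGA4 4.58 and 3.19. ITGB6, known from injured lung epithelium, averaged 3.40 and ITGB8 2.87. ITGA8 averaged 3.12.

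On the cell surface CD151, a tetraspanin that binds laminin-receptor integrins, averaged 9.77 ± 0.08, NECTIN2 8.35 and CD44, a hyaluronan receptor, 8.30 ± 0.03 (SD, n = 3). ICAM1 averaged 5.58, the tumour antigens CEACAM6 and CEACAM5 5.36 and 3.92, CDH6 3.83 and VCAM1 3.09. In the matrix list the laminin chains LAMC1 and LAMB1 led at 9.51 ± 0.06 and 8.86 ± 0.06, while LAMA1, LAMA4 and LAMA2 averaged 4.30, 3.48 and 3.25. COL4A2 and COL4A1 of basement membrane averaged 7.44 and 6.84. Among proteases ADAM9, CTSD and CTSL averaged 9.90, 9.29 and 9.23 and PLAU, urokinase, 7.91. The collagenases MMP1 and MMP13 lay at 2.82 ± 0.00 and 2.80 ± 0.09, and MMP3 at 2.98.

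**Figure D4:**
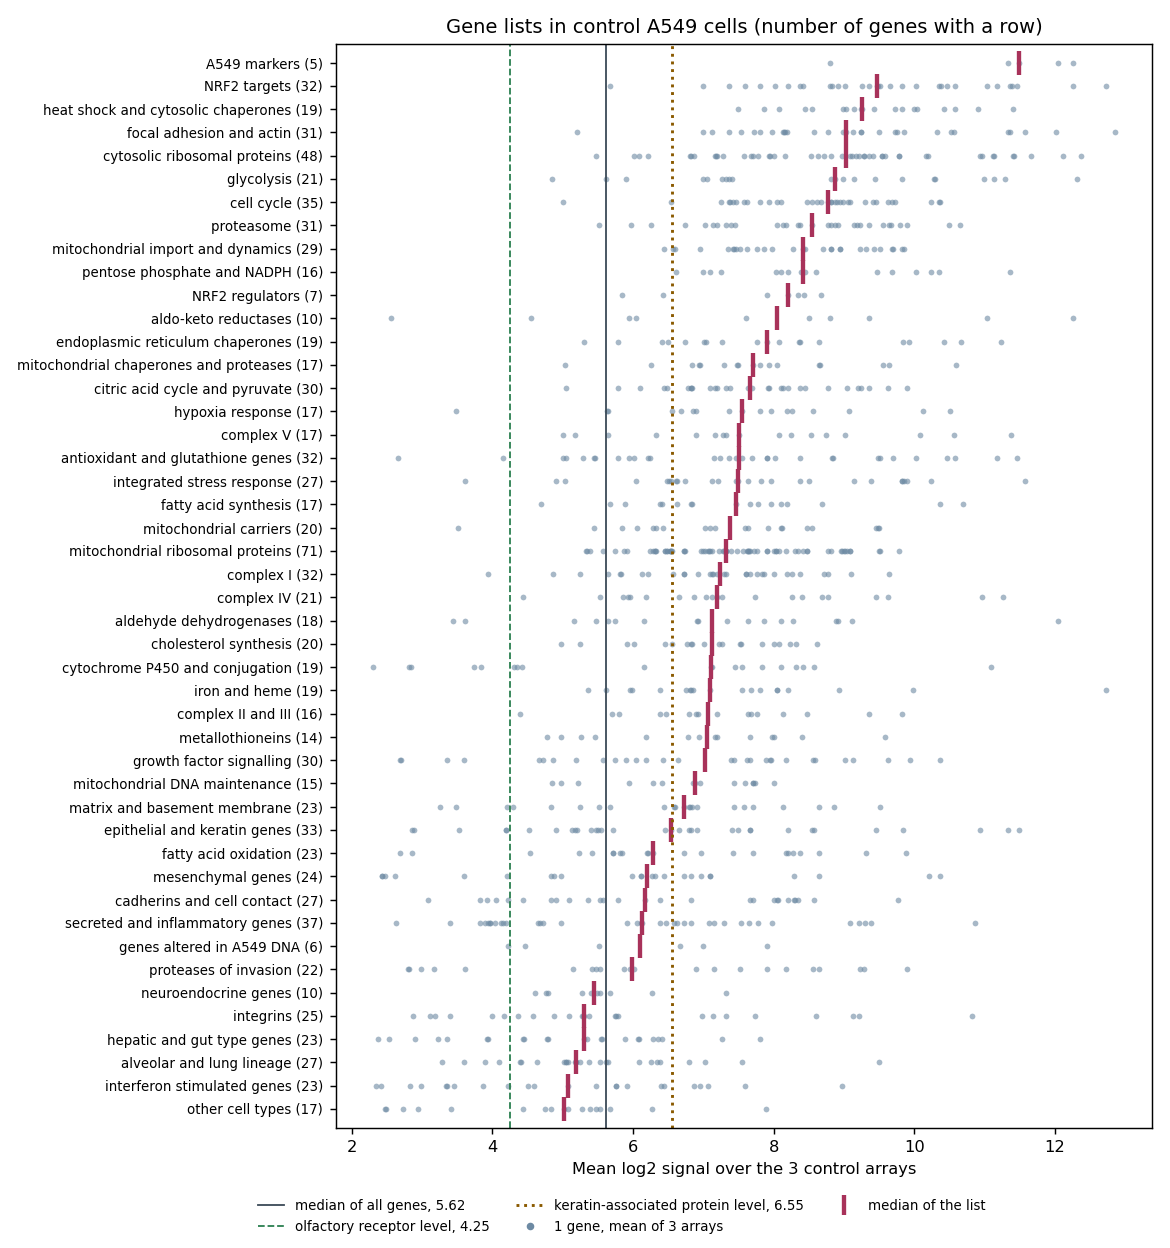
Mean log2 signal over the 3 control arrays (x axis) of every gene with a row in 46 lists of 5 or more such genes (y axis), 1 dot per gene, with the list median as a bar. NRF2 targets have the highest median of the functional lists (9.47) and markers of other cell types the lowest (5.02), against 5.62 for all genes.

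The deviation of replicate 3 depended on the signal. Its median difference from the mean of the other arrays was 0.09 for rows between 5 and 6, -0.06 between 8 and 9 and 0.06 above 11. Over all genes, 13998 of 22411 were higher on replicate 3 than the mean of the other arrays and 8413 were lower. Of 48 cytosolic ribosomal protein genes 40 were higher, with a median of 0.08, and of 30 growth factor signalling genes 25, with 0.07. Of 35 cell cycle genes 26 were lower, by a median of -0.08, as were 23 of 31 proteasome genes with -0.09 and 14 of 19 cytosolic chaperones with -0.10. These medians are of the size of the median SD, 0.0847 over all genes.

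**Figure D5:**
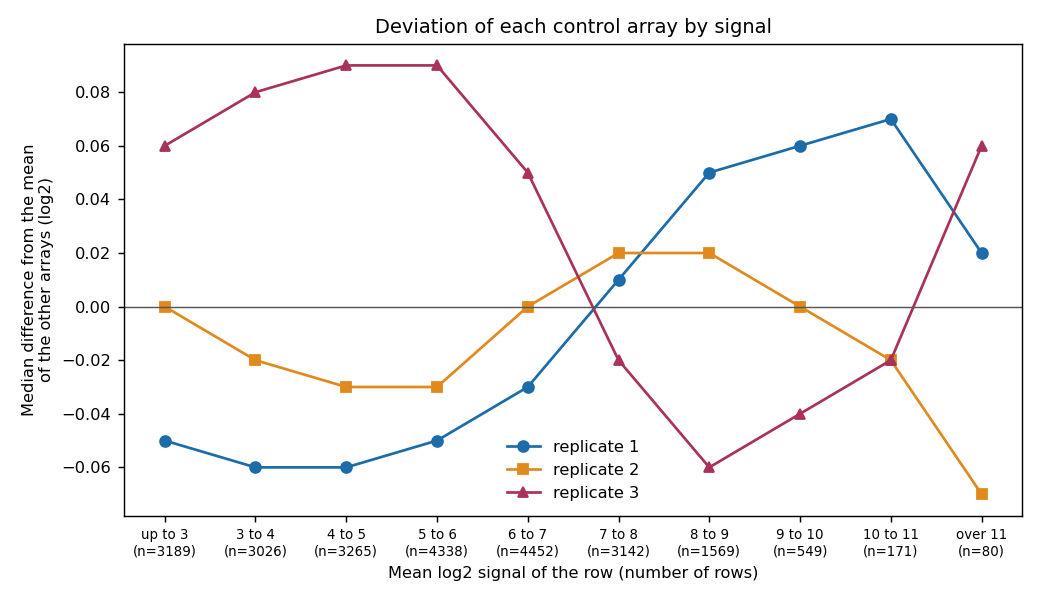
Median difference of each control array from the mean of the other arrays (y axis, log2) in 10 bins of mean row signal (x axis). Replicate 3 runs from 0.06 in the dimmest bin through 0.09 at 5 to 6 down to -0.06 at 8 to 9. It returns to 0.06 above 11. Replicate 1 takes the opposite course up to a signal of 11, but each array is set against the others, so the courses are not independent.

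Large spread was rare and lay mostly in rows that are not protein coding. An SD above 0.3 was found in 244 of 23781 rows (1.03%), in 48 of 18215 protein-coding rows (0.264%) and in 196 of the other 5566 (3.52%). The count rests on all 3 arrays, since an SD from 2 is less exact. It came to 547 without replicate 1, 546 without replicate 2 and 181 without replicate 3. A range of 1 or more was reached by 8 rows. SNORA14A, a small nucleolar RNA, read 5.22 and 5.25 on replicates 1 and 3 and 6.79 on replicate 2, an SD of 0.90. RNU5D-2P, a pseudogene of the U5 spliceosomal RNA, read 9.22, 8.37 and 9.93, and RNU5E-2P 6.04, 5.10 and 6.25. SNORD18B read 5.96, 5.06 and 4.58 and RNA5SP162 4.72, 4.99 and 3.77. HLA-DRB6 read 5.12, 4.69 and 5.80 and C4B, a complement gene with a near-identical copy, 3.49, 4.84 and 4.48.

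The rest of the 20 most variable genes above the olfactory receptor level had SDs between 0.42 and 0.63. They were the microRNA genes MIR4449, MIR4263, MIR152, MIR548W, MIR3685 and MIR1539, the small RNA or segment genes SNORA38B, RNU6-31P and IGHD2-21, and RFPL4AL1, USP17L6P, CDC14C and LINC00857. Only 3 of the 20 were protein coding. Replicate 3 was the highest array in 10 and the lowest in 8. Protein-coding genes above the keratin-associated level varied less, and the following were chosen after their values were seen. CUL5, a ubiquitin ligase scaffold, read 7.34, 7.19 and 6.66 with an SD of 0.35, PM20D2 7.89, 7.78 and 7.25 and AGPS, of ether lipid synthesis, 8.53, 8.34 and 7.91. Replicate 3 was the lowest array in 19 of the 20 such genes of largest SD. The share over all protein-coding genes above that level was not counted. Replicate 3 was the farthest array in 56.8% of all rows. Its median deviation was 0.05 between 6 and 7, -0.02 between 7 and 8 and -0.06 between 8 and 9.

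Mature microRNA sequences are given for 5 genes in which replicate 3 stood apart and for the brightest one, with the seed (bases 2 to 8) in capitals, from RefSeq (GRCh38.p14). Of the 1041 microRNA genes with a row, 965 matched a sequence. The labels do not say whether a row reads the precursor or the mature form.
hsa-miR-4466: gGGUGCGGgccggcgggg
hsa-miR-4449: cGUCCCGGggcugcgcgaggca
hsa-miR-3689b-5p: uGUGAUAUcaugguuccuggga
hsa-miR-3689f: uGUGAUAUcgugcuuccuggga
hsa-miR-3689b-3p: cUGGGAGGugugauauuguggu
hsa-miR-3689d: gGGAGGUGugaucucacacucg
hsa-miR-4466 lies at chr6:156779710-156779727 (minus strand) and hsa-miR-4449 at chr4:52712720-52712741 (plus). The others lie on the minus strand of chromosome 9, with hsa-miR-3689b-5p at chr9:134850206-134850227, hsa-miR-3689f at chr9:134850783-134850804 and hsa-miR-3689b-3p at chr9:134850166-134850187. hsa-miR-3689d has copies at chr9:134849660-134849681 and chr9:134850332-134850353. MIR4449 read 9.11 and 9.01 on replicates 1 and 2 and 7.97 on replicate 3, which was the low array. MIR3689B read 5.74, 5.73 and 6.46 and MIR3689F 6.03, 6.02 and 6.73, and hsa-miR-3689b-5p shares its seed with hsa-miR-3689f. MIR3689D1 read 5.11, 5.35 and 5.83 and MIR3689D2 4.57, 4.71 and 5.34, and both give the same mature sequence. Replicate 3 was the high array for all 4 of these MIR3689 genes, which were chosen after their values were seen and are alike in sequence and so not independent readings. In addition, 689 of the 23781 rows (2.90%) shared identical values on all 3 arrays with another row.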

How the data were processed

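Values in the deposited table are log2 signals, and the submitters' processing notes name RMA without a version. RMA corrects background, equalises probe distributions between arrays and summarises the probes of a transcript cluster, which compresses differences of dim rows. Per the labels' protocols, total RNA was labelled with the GeneChip WT PLUS kit. The set of arrays normalised together is not given in the sources used here. No value was missing.

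Rows were named from a platform annotation and updated with RefSeq records (GRCh38.p14, names and gene types only). Of 67528 rows, 23781 had 1 symbol, 1543 several and 42204 none. Of the 23781, an Entrez identifier named 21497, a current symbol 1974 and an older symbol 306, while 4 kept the annotation's name. Array medians of named rows were 5.55, 5.56 and 5.63, and the number of arrays limits precision.

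Means, SDs, ranks and percentiles were computed in Python 3.11.15 with pandas 2.3.3 and checked on simulated data. No groups were compared, so no test was run. The 48 lists and the members were chosen with earlier results of these data known. Named were the 5 markers, the 25 brightest protein-coding genes, the 10 brightest other rows, at least the 3 highest and 2 lowest members of each list with others by role, and the 20 most variable genes above the olfactory receptor level. A list and a few genes are not reported here. Alternatives left out each array, renormalised, averaged rows of a gene, changed the level or kept protein-coding rows only. The keratin-associated level was added after seeing the data.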

Additional observations from a re-analysis of the deposited data

How the results depend on the processing

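Leaving out replicate 3 lowered the mean pairwise median difference to 0.0601, against 0.0996 with all arrays, and the range over left-out arrays was 0.0601 to 0.128. The median percentile of the 5 markers ranged from 99.836 to 99.8486 over left-out arrays and was 99.8847 among protein-coding rows only, against 99.8402. Genes above background numbered 15895 to 15992 over left-out arrays and 7124 at the keratin-associated level, which was chosen after seeing the data, against 15898. Rows with an SD above 0.3 numbered 181 to 547 over left-out arrays, 48 among protein-coding rows only and 160 among rows above the background level, against 244, where fewer rows or arrays enter by construction. With the higher level, 16 of 48 list counts fell by over 1.5 times, and 6 of 48 with the median of all rows. Without replicate 1, 2 or 3, list median percentiles shifted by -1.50 to 1.70. Ranking among protein-coding rows only moved 44 of 48 of them, by -8.11 at most, while averaging all rows of a gene moved 2 of 48, by -8.28 at most. Quantile normalisation left each within 0.0799. No paired analysis was possible because no groups were compared. Arrays carry no counting depth, and under the keratin-associated level expression and unspecific signal cannot be told apart.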

Other observations

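Proliferation genes, not described above, were bright in control A549 cells. TOP2A, the topoisomerase of dividing cells, read 10.49, 10.32 and 10.26, MKI67, the proliferation antigen, 10.43, 10.36 and 10.28, and PLK1, a mitotic kinase, 10.24, 10.25 and 10.23. Of 35 cell cycle genes 33 exceeded the keratin-associated level, against 37.6% of protein-coding genes. CCND1, the cyclin of G1, averaged 9.63 ± 0.04 and CCNE2 5.01 ± 0.23 (SD, n = 3). CDKN1B, the inhibitor p27, averaged 6.54. The growth factor receptors IGF1R, MET and EGFR averaged 9.94, 9.13 and 9.01. ALK, KIT and ROS1, kinases of other tumours, averaged 4.72, 2.70 and 2.69, and DUSP6, a phosphatase that restrains ERK, 4.86 ± 0.03.

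Among secreted genes IGFBP4, which binds insulin-like growth factors, read 10.79, 10.83 and 10.99, CXCL5, a chemokine for neutrophils, 9.54, 9.31 and 9.30, and CCL2, a chemokine for monocytes, 9.17, 8.99 and 9.12. IGFBP3 averaged 9.30. CXCL8, IL6, IL1B and IL1A averaged 3.89, 3.96, 3.40 and 2.63, all under the olfactory receptor level. In iron and heme metabolism BLVRB, a biliverdin reductase, averaged 9.98 ± 0.09 and TFRC, the transferrin receptor, 8.93 ± 0.13 (SD, n = 3). ALAS1, the first enzyme of heme synthesis, averaged 8.05, and PPOX, a late one, 5.36. The iron exporter SLC40A1 averaged 5.61. Proteasome genes ran from PSMC4 at 10.65 ± 0.01 to the interferon-inducible PSMB8 at 5.52 ± 0.11. PSMB3 and PSMD8 averaged 10.49 and 9.90, and PSMB9, also interferon-inducible, 5.97.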
